A study of Mus musculus with 4 samples.

Results

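Cytokines that signal through Janus kinases and STAT proteins switch on the genes that later restrain or extend their own signal. The 8 feedback genes described here are Socs1, Socs2, Socs3 and Cish, which encode suppressors of cytokine signalling, Pim1 and Pim2, which encode serine/threonine kinases induced by STAT proteins, and Ptpn2 and Ptpn6, which encode the protein tyrosine phosphatases TC-PTP and SHP-1. They were chosen by symbol from the 21926 genes of the deposited tables, and all 8 were measured. The study deleted Eif4g2, the gene of the translation initiation factor eIF4G2, in mouse T lineage cells and asked how thymocytes pass from positive selection to the single-positive (SP) stage and how they respond to IL-7. The libraries were made from unsorted whole thymus of 5-week-old mice. The group called WT carried Eif4g2 flox/flox alleles without Cre, and the Eif4g2 cKO group carried the same floxed alleles with CD4-Cre. Both mice therefore share the floxed alleles. The Cre is driven by Cd4, which becomes active around the CD4 CD8 double-positive (DP) stage, so that double-negative (DN) cells in the cKO thymus are largely undeleted. Each genotype was represented by 1 library of 1 sample, in 1 labelled batch. No difference between genotypes could be tested, and every interval below covers counting error only and not the spread between mice.

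In the thymus, IL-7 acts on DN cells and again after positive selection, and DP cells express little of its receptor. SOCS1 binds and inhibits Janus kinases, CIS (the product of Cish) and SOCS2 bind receptor tails, and SOCS3 acts mainly on receptors that use gp130. All of them carry a SOCS box that recruits a ubiquitin ligase. TC-PTP removes phosphate from Janus kinases and STAT proteins, and SHP-1 acts on both cytokine receptors and the T cell receptor (TCR). PIM kinases support survival and growth and are used as a readout of STAT5 activity. In thymocytes SOCS1 is best known for keeping DP cells unresponsive to cytokines until they have been selected.

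The WT library held 6014 cells with 18355050 UMIs (unique molecular identifiers, each counting 1 captured RNA molecule), and the Eif4g2 cKO library held 4335 cells with 18056277 UMIs. Clustering without the feedback genes, their pathway genes or Eif4g2 gave 5 thymocyte classes, which were named from markers. They held 93 WT and 116 cKO cells in the DN-like class, 992 and 1318 in the cycling class, 3344 and 2090 in the DP-like class, 644 and 489 in the early post-selection-like class (called early below) and 739 and 266 in the mature SP-like class. DP-like cells of the libraries lay in different clusters, with 1910 and 1287 of the WT cells in clusters 0 and 2 and 1817 of the cKO cells in cluster 1. Cycling cells were likewise mostly in cluster 6 in WT, with 512 cells, and in clusters 5 and 7 in cKO, with 658 and 495. Both samples were labelled female, yet the 4 Y-linked genes examined gave 3969 UMIs in the WT library and 511 in the cKO library, of which 510 were Ddx3y, so the WT library goes against its label. Sex and genotype cannot be told apart here, and Pim2 lies on the X chromosome. The whole-library level of Eif4g2 was 223 CPM (UMIs scaled to a total of 1000000) in WT, below the 274 CPM of cKO. Reads from the 3′ end of the transcript do not check the deletion. RNA of other cells differed too, since erythroid markers summed to 210 CPM in WT mature cells, with 5 of 5 detected, and to 10.7 CPM in cKO mature cells, with 3 of 5. A total of 1055 cell names occurred in both libraries, and these names are serial numbers rather than barcode sequences.

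Each gene's level is given as the CPM of the summed UMIs of 1 class in 1 library, with an exact Poisson 95% interval. Levels were compared for 1 gene at a time and not between genes, because 3′ tags of different genes are captured unequally. A pair of levels was called apart when the log2 ratio was beyond 0.5 in either direction and the sums held at least 50 UMIs together.

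The sequences around the transcription start are shown for Cish and Socs3 because these were the only feedback genes whose promoter window held the palindromic STAT motif. The motif searched was TTCNNNGAA, which is its own reverse complement, in RefSeq windows from 250 bases before to 50 bases after the start site (GRCm38.p6). The matches are in capitals.
Cish, chr9:107296654-107296683, plus strand: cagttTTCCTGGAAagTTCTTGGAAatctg
Socs3, chr11:117969502-117969531, minus strand: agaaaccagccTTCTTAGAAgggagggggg
The Cish window held 2 matches, TTCCTGGAA at positions 1 to 9 and TTCTTGGAA at positions 12 to 20 after the start. Of 32851 windows of the same length, 2726 (8.30%) held at least 1 match and 150 (0.457%) held 2 or more. In Socs3 the match TTCTTAGAA ended 146 bases before the start. The windows of Socs1, Pim1 (2 windows), Pim2 and Ptpn6 held no such letters, which says nothing of STAT binding there or elsewhere. Socs2 and Ptpn2 had no window in the table.

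Socs1 (chr16:10782240-10785536) peaked in DP-like cells of both libraries. In WT it was at 173 CPM in DN-like cells, 172 CPM in cycling cells, 524 CPM (interval 505 to 544) in DP-like cells, 327 CPM in early cells and 161 CPM in mature cells. In cKO the levels in the same order were 189, 211, 605, 475 and 222 CPM. DN-like, cycling and mature WT cells did not differ beyond their intervals, and the DP-like level stood above all of them. From DN-like to DP-like cells the log2 ratio was 1.6 (interval 1.30 to 1.91) in WT and 1.68 (1.43 to 1.93) in cKO. From early to mature cells it was −1.02 (−1.22 to −0.83) in WT and −1.10 (−1.33 to −0.86) in cKO, a 2.03-fold and a 2.14-fold lower level. The step from DP-like to early cells was −0.68 (−0.83 to −0.54) in WT and −0.35 (−0.49 to −0.21) in cKO, so that it was beyond 0.5 in WT and not in cKO.

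**Figure D1:**
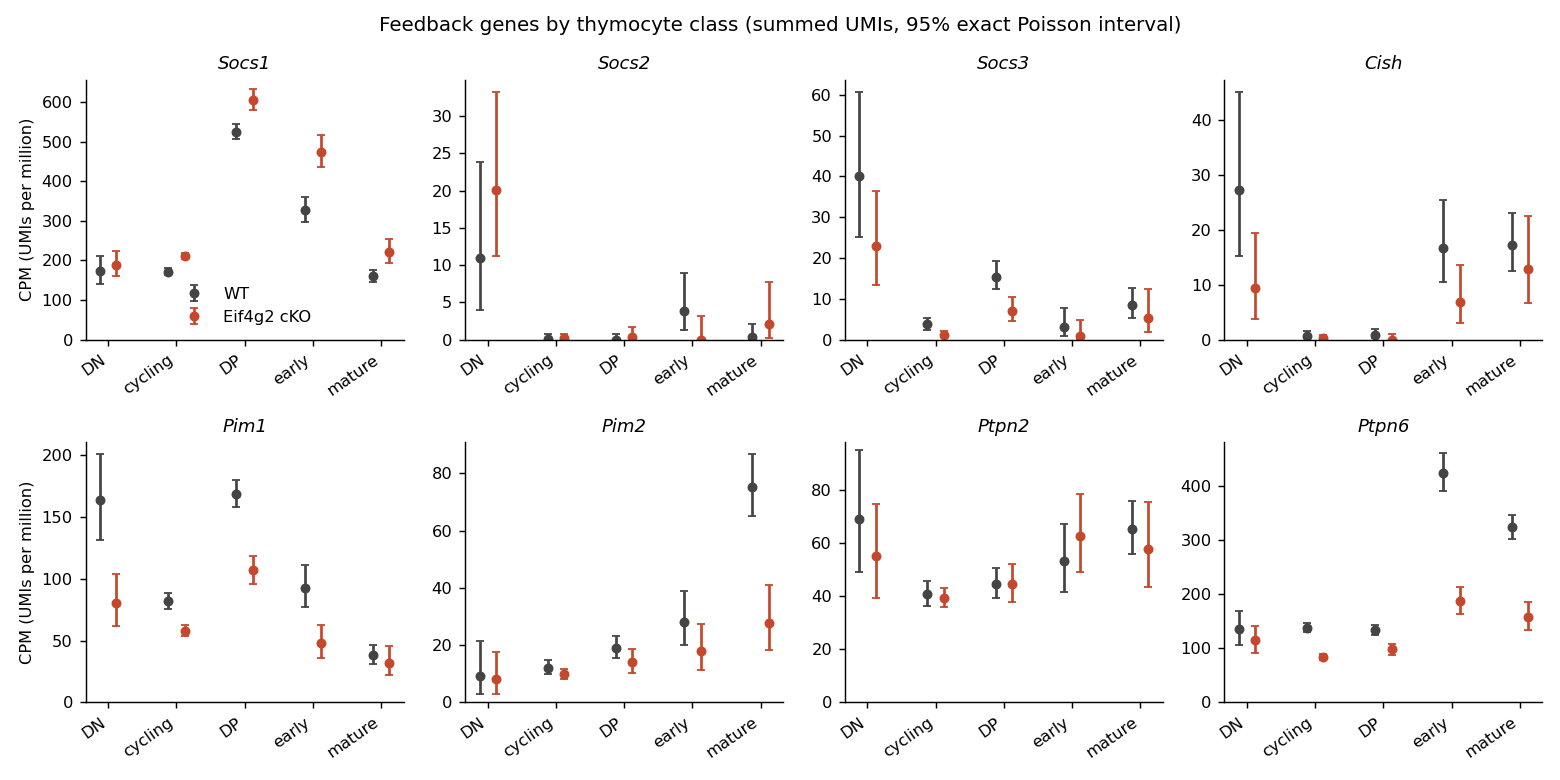
Level of each feedback gene (y axis, CPM on a linear scale from 0) in the 5 thymocyte classes (x axis), with WT in grey and Eif4g2 cKO in red; points are sums over all cells of 1 library and bars are exact Poisson 95% intervals. Socs1 is highest in DP-like cells, at 524 and 605 CPM, Ptpn6 stands higher in early and mature WT cells than in earlier ones, and Socs2 and Cish are near 0 in cycling and DP-like cells.

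Cish (chr9:107296026-107302784) and Socs3 (chr11:117966079-117970047) were instead highest in DN-like cells of WT. Cish, a direct STAT5 target, was at 27.3 CPM in WT DN-like cells, 0.659 CPM in cycling cells, 0.754 CPM in DP-like cells, 16.8 CPM in early cells and 17.2 CPM in mature cells. The cKO levels were 9.40, 0.347, 0, 6.85 and 12.9 CPM. The DN-like, early and mature intervals of WT overlapped one another, and all 3 lay above those of cycling and DP-like cells. The Cish level in WT DP-like cells rested on 4 UMIs and was 36.3-fold lower than in DN-like cells (log2 ratio −5.18, −7.23 to −3.53). In cKO no UMI was found in DP-like cells, and the interval of the log2 ratio from DN-like to DP-like cells reached up to −2.73. Il7r, the gene of the IL-7 receptor alpha chain, was at 76.5 CPM in WT DN-like cells, 1.88 CPM in DP-like cells, 13.7 CPM in early cells and 146 CPM in mature cells. In cKO, Il7r was at 38.9, 3.5, 6.0 and 87.9 CPM in those classes.

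Socs3 was at 40.1 CPM in WT DN-like cells, 3.69 CPM in cycling cells, 15.4 CPM in DP-like cells, 3.05 CPM in early cells and 8.41 CPM in mature cells. The cKO library gave 22.8, 1.22, 7.00, 0.857 and 5.36 CPM. Unlike Cish, Socs3 kept a level in DP-like cells above that of cycling and early cells in both libraries, although the intervals of cKO DP-like and early cells overlapped. The early cells gave only 4 UMIs in WT and 1 UMI in cKO. In WT the log2 ratio was −1.38 (−2.07 to −0.63) from DN-like to DP-like cells and −2.34 (−4.25 to −0.93) from DP-like to early cells.

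Socs2 gave 22 UMIs in each library. In WT, 8 of them were in 55 cells of the natural killer T (NKT) or gamma-delta T-like class, 6 in DN-like cells, 5 in early cells, 1 each in cycling and mature cells and 0 in DP-like cells. In cKO, 15 were in DN-like cells, 3 in cycling cells, 2 in mature cells, 1 in DP-like cells and 0 in early cells. The WT level in NKT or gamma-delta T-like cells was 39.1 CPM (16.9 to 77.1), against 10.9 CPM (4.01 to 23.8) in DN-like cells, and the intervals overlapped. In WT the interval of the log2 ratio from DN-like to DP-like cells reached up to −3.51. From DP-like to early cells of WT it reached down to 1.89.

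Pim1 (chr17:29490753-29496112) and Pim2 (chrX:7878262-7883432) differed most in the step from early to mature cells, where Pim1 was lower and Pim2 higher in WT mature cells. Pim1 in WT was at 164 CPM in DN-like cells, 82.0 CPM in cycling cells, 169 CPM in DP-like cells, 92.9 CPM in early cells and 38.2 CPM in mature cells. Pim1 in cKO was at 80.5, 58.0, 107, 48.0 and 32.1 CPM. The WT DN-like and DP-like levels did not differ beyond their intervals. From early to mature cells the Pim1 log2 ratio was −1.28 (−1.68 to −0.89) in WT. In cKO it was −0.58 (−1.27 to 0.09), an interval that includes 0, and 2 other clusterings turned its direction. Pim2 in WT was at 9.11 CPM in DN-like cells, 12.1 CPM in cycling cells, 19.0 CPM in DP-like cells, 28.2 CPM in early cells and 75.3 CPM in mature cells. Pim2 in cKO was at 8.05, 9.72, 14.0, 18 and 27.9 CPM. The order of the classes was the same in both libraries, but most neighbouring levels up to the early class overlapped in their intervals, the exception being cycling and DP-like cells of WT. From early to mature cells the Pim2 log2 ratio was 1.42 (0.91 to 1.97) in WT. In cKO it was 0.63 (−0.26 to 1.53) on 47 UMIs, under the minimum.

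The phosphatase genes differed from each other. Ptpn2, on chromosome 18, was the flattest of the feedback genes, with 40.9 to 69.2 CPM over the WT classes and 39.3 to 62.5 CPM over the cKO classes. Its only call between neighbouring classes was a lower level in WT DP-like than in DN-like cells, with a log2 ratio of −0.63 (−1.13 to −0.10). Ptpn6 (chr6:124720707-124738714) in WT was at 135 CPM in DN-like cells, 137 CPM in cycling cells, 133 CPM in DP-like cells, 424 CPM in early cells and 323 CPM in mature cells. Ptpn6 in cKO was at 114, 83.7, 97.5, 187 and 158 CPM. In both libraries the early level was the highest of the 5 and the mature level was next, with overlapping intervals between these classes in cKO. The log2 ratio from DP-like to early cells was 1.67 (1.51 to 1.83) in WT, a 3.18-fold higher level, and 0.94 (0.69 to 1.19) in cKO, a 1.92-fold higher level. Whether the WT and cKO steps differ could not be tested with 1 library each.

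Each count of feedback genes is set beside the share of all genes called. From DN-like to DP-like cells of WT, 2 of 6 feedback genes with enough UMIs were higher (Socs1 and Pim2) and 2 lower (Socs3 and Ptpn2), where 50.7% of all genes were higher and 14% lower. Pim2 had 5 UMIs in WT DN-like cells, and its interval of −0.21 to 2.72 includes 0. In cKO, 2 of 5 were higher (Socs1 and Pim2) and none lower, where 54.3% of all genes were higher and 11.5% lower. The cKO value of Pim2 rested on 6 DN-like UMIs, with an interval of −0.43 to 2.31, and with classes set by marker UMIs the Pim2 step turned to −1.28 in WT and −1.25 in cKO. From DP-like to early cells of WT, 2 of 6 were higher (Pim2 and Ptpn6) and 3 lower (Socs1, Socs3 and Pim1), beside 12.2% and 26.5% of all genes. In cKO, 1 of 5 was higher (Ptpn6) and 1 lower (Pim1), beside 8.83% and 29.4%. From early to mature cells of WT, 1 of 6 was higher (Pim2) and 2 lower (Socs1 and Pim1), beside 9.05% and 29.9%. In cKO, none of 4 was higher and 2 were lower (Socs1 and Pim1), beside 5.46% and 30.3%. With so few genes these counts are descriptions.

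The early class consisted of cluster 4 and the smaller cluster 10. Cluster 10 had Tnfrsf9 and Nr4a1, genes induced by strong TCR signals, among its leading genes, and none of the feedback genes was used to form it. It also had 4 of 6 regulatory T cell markers raised, with Ikzf2 and Tnfrsf4 among its leading genes. In the whole early class these 6 markers summed to 1471 CPM in WT and 841 CPM in cKO. The part of such cells in the levels below was not tested. Cish lay almost wholly in cluster 10. In WT, 21 of the 22 Cish UMIs of the early class (95.5%) were in cluster 10, which held 26.0% of the class's UMIs. These UMIs came from 12 of its 107 cells, with at most 4 UMIs in a cell. The WT level was 61.6 CPM in cluster 10 and 1.03 CPM in cluster 4, and the cKO level was 17.8 CPM and 1.29 CPM, with 7 of 8 UMIs in cluster 10. Pim2 followed the same order, with 61.6 CPM in cluster 10 and 16.5 CPM in cluster 4 of WT (log2 ratio 1.90, 0.90 to 2.94) and with 22.9 and 15.5 CPM in cKO (0.56, −0.87 to 1.93). Pim1 was also higher in cluster 10, with 141 against 76.1 CPM in WT and 68.6 against 37.5 CPM in cKO. Socs1 went the other way, with 354 CPM in cluster 4 of WT against 249 CPM in cluster 10 (log2 ratio −0.50, −0.86 to −0.16) and 569 against 290 CPM in cKO (−0.97, −1.28 to −0.67). Ptpn6 was at 443 CPM in cluster 10 and 418 CPM in cluster 4 of WT (0.09, −0.19 to 0.36), and at 147 and 207 CPM in cKO (−0.49, −0.95 to −0.05). Without cluster 10 the WT step of Pim2 from DP-like to early cells turned to −0.21.

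**Figure D2:**
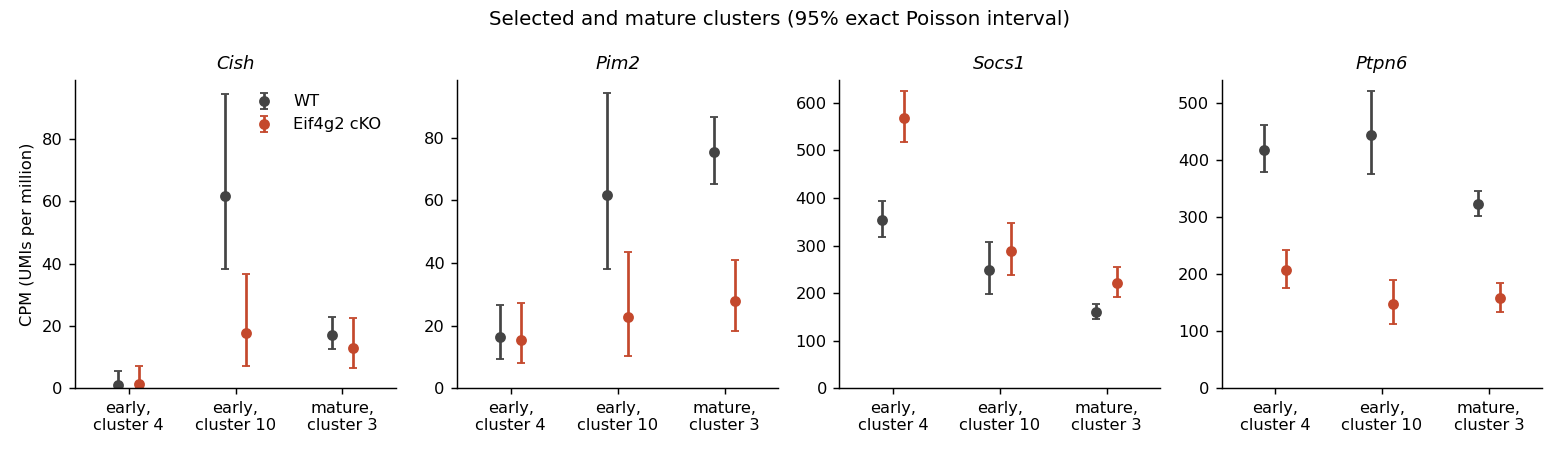
Levels of Cish, Pim2, Socs1 and Ptpn6 (y axis, CPM, linear from 0) in early clusters 4 and 10 and in the mature cluster 3 (x axis), WT in grey and Eif4g2 cKO in red, with exact Poisson 95% intervals. Cish and Pim2 are higher in cluster 10 than in cluster 4 of WT, each at 61.6 CPM, whereas Socs1 is lower there, and Ptpn6 is lower in cKO in all 3 clusters.

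Between genotypes, the feedback genes called apart were mostly lower in Eif4g2 cKO cells of the same class. Over the 5 classes, 26 of 40 gene-and-class pairs had enough UMIs, of which 1 was higher (Socs1 in early cells) and 9 were lower in cKO (Pim1 in 3 classes, Ptpn6 in 3, Pim2 in 2 and Socs3 in 1). Of all genes, 3.15% to 10.1% were higher and 27% to 35.7% lower, depending on the class. All genes together were also shifted, with a median log2 ratio of −0.10 in DN-like, −0.27 in cycling, −0.18 in DP-like, −0.23 in early and −0.25 in mature cells. The shift moved with the length of the gene on the chromosome. In mature cells the median was 0.11 for genes spanning up to 5 kb, −0.01 for 5 to 20 kb, −0.37 for 20 to 100 kb and −0.99 for more than 100 kb. The same medians in DN-like cells were 0.14, 0.06, −0.25 and −0.97. Of the feedback genes, Socs1 spans 3297 bases, Socs3 3969, Pim2 5171, Pim1 5360, Cish 6759, Ptpn6 18008, Socs2 31819 and Ptpn2 59085. With ratios centred on each class's median, 3 pairs were higher (Socs1 in cycling, early and mature cells) and 6 lower. The share of all genes called after centring is not given, so these counts are descriptions only. The part that gene length or library preparation has in these ratios was not tested.

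The Socs1 ratio was above 0 in all 5 classes. Its log2 ratio was 0.13 (−0.26 to 0.52) in DN-like, 0.30 (0.20 to 0.40) in cycling, 0.21 (0.12 to 0.29) in DP-like, 0.54 (0.35 to 0.72) in early and 0.47 (0.22 to 0.71) in mature cells. Only the early value was past 0.5, a 1.45-fold higher level. Within the early clusters it was 0.68 (0.48 to 0.89) in cluster 4 and 0.22 (−0.20 to 0.64) in cluster 10. Within the DP-like clusters 0, 1 and 2 it was 0.07, 0.02 and 0.20, each with an interval that includes 0. The sign of Socs1 was the same in every class under all 12 alternatives of processing. The early value ran from 0.42 to 0.77 and was no longer past 0.5, at 0.42, with each library clustered alone. Genes spanning up to 5 kb, as Socs1 does, had medians above 0 too. Their median was 0.14 in DN-like, 0.05 in cycling, 0.20 in DP-like, 0.13 in early and 0.11 in mature cells.

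Ptpn6 had a ratio below 0 in all 5 classes and past the fold in cycling, early and mature cells. Its log2 ratio was −0.24 (−0.71 to 0.23) in DN-like, −0.72 (−0.84 to −0.59) in cycling, −0.45 (−0.64 to −0.26) in DP-like, −1.18 (−1.42 to −0.96) in early and −1.04 (−1.30 to −0.78) in mature cells. The early and mature levels were thus 2.27-fold and 2.05-fold lower. Both early clusters showed it, with −1.01 (−1.29 to −0.75) in cluster 4 and −1.59 in cluster 10. Under the 12 alternatives the mature value ran from −1.22 to −0.79 and the early value from −1.22 to −0.85. Ptpn6 was also abundant in antigen-presenting-like cells, at 331 CPM in WT. Their markers, 10 of 11 detected in WT and 8 of 11 in cKO, summed to 79.9 CPM in WT mature cells and 19.3 CPM in cKO mature cells, against 33056 CPM in the WT antigen-presenting-like cells themselves.

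Pim1 was called lower in DN-like, DP-like and early cells of cKO and lay just short of the fold in cycling cells. Its log2 ratio was −1.03 (−1.52 to −0.54) in DN-like, −0.50 (−0.66 to −0.34) in cycling, −0.66 (−0.84 to −0.48) in DP-like and −0.95 (−1.44 to −0.49) in early cells. In mature cells it was −0.25 (−0.89 to 0.35), equal to the median of all genes. Within the DP-like clusters 0, 1 and 2 the ratio was −0.28, −0.58 and −0.26, each with an interval that includes 0.

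Pim2 was lower mainly in mature cells, with a log2 ratio of −1.43 (−2.08 to −0.84), a 2.70-fold lower level. The 12 alternatives gave −1.58 to −1.11. In DN-like, cycling and DP-like cells it was −0.18, −0.32 and −0.44, with intervals that include 0. The early value of −0.65 (−1.49 to 0.16) passed the fold but also included 0, and cluster 4 alone gave −0.09 (−1.30 to 1.09). The mature class itself differed between libraries. Its 10 markers summed to 3444 CPM in WT and 2760 CPM in cKO, and 44.2% of WT mature cells (327 of 739) had a UMI of Klf2 or S1pr1, genes of the most mature thymocytes, against 32.3% (86 of 266) in cKO. Within the cells that had such a UMI, a choice made after the values were seen, Pim2 was at 96.7 CPM (81.0 to 115) in WT and 32.4 CPM (16.1 to 57.9) in cKO. Mature cells without one had 51.2 CPM (39.4 to 65.5) and 25.3 CPM (14.2 to 41.7).

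Socs3 and Cish rested on few UMIs. Socs3 in DP-like cells had 82 UMIs in WT and 24 in cKO, a log2 ratio of −1.14 (−1.86 to −0.47). Within cluster 0 it had 53 UMIs in WT and 0 in cKO, with an upper limit of −0.27 for the log2 ratio. Within cluster 1 it had 1 and 21 UMIs, a ratio of 0.50 (−2.13 to 5.87), and within cluster 2 it had 28 and 3, a ratio of −0.53 (−2.89 to 1.17). For Cish the log2 ratio was −1.54 (−3.08 to −0.16) among DN-like, −1.29 (−2.67 to −0.07) in early and −0.42 (−1.47 to 0.52) in mature cells, of which only the mature one had 50 UMIs or more. In cluster 10 it was −1.79 (−3.27 to −0.51). That cluster also differed between libraries in genes named after their values were seen, with Tnfrsf4 at 634 CPM in WT against 25.4 CPM in cKO and Bcl2l11 at 414 and 81.3 CPM. Nr4a1 was at 868 and 483 CPM there. Their part in the Cish value was not tested. Socs2 in early cells had 5 UMIs in WT and 0 in cKO, and the interval of its log2 ratio reached up to 0.30, so no difference was detectable at this depth. Ptpn2 was within 0.5 in all 5 classes, with −0.33 (−1.0 to 0.35) in DN-like and 0.23 (−0.26 to 0.72) in early cells. In DP-like cells Ptpn2 was at 44.6 CPM in both libraries, with an interval of the log2 ratio from −0.30 to 0.30.

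The counts of feedback genes are again set beside those of all genes. In DN-like cells, none of 4 was higher in cKO and 1 was lower (Pim1), where 10.1% of all genes were higher and 27% lower. In cycling cells, none of 5 was higher and 1 was lower (Ptpn6), beside 3.15% and 35.1%. In DP-like cells, none of 6 was higher and 2 were lower (Socs3 and Pim1), beside 8.36% and 29.3%. In early cells, 1 of 5 was higher (Socs1) and 3 were lower (Pim1, Pim2 and Ptpn6), beside 8.08% and 34.1%. In mature cells, none of 6 was higher and 2 were lower (Pim2 and Ptpn6), beside 8.93% and 35.7%. The shares of feedback genes called lower were close to those of all genes in DN-like, DP-like and mature cells, below in cycling cells and above in early cells, on 4 to 6 genes each. The median of the feedback genes that passed the minimum, a description only, was −0.29, −0.32, −0.45, −0.65 and −0.34 in the 5 classes in that order, and it was below the all-gene median in each.

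For Socs1, Ptpn6 and Pim2, the share of cells with a UMI was compared as measured and after each cell was thinned to 1000 UMIs, since deeper cells show more genes. Socs1 was found in 48.0% of WT and 53.8% of cKO DP-like cells, and after thinning in 37.6% and 42.2%. Median depths there were 1406 and 1359 UMIs. In early cells the Socs1 shares were 39.9% and 49.9%, and 25.9% and 34.2% after thinning. Ptpn6 was found in 49.7% of WT and 35% of cKO mature cells, and in 24.9% (21.8 to 28.2) and 15.8% (11.6 to 20.7) after thinning, at median depths of 3246 and 3259.5 UMIs. Pim2 was found in 15.2% and 8.27% of mature cells, and in 6.36% (4.71 to 8.37) and 3.01% (1.31 to 5.84) after thinning, intervals that overlap. Erythroid-like cells of WT are given beside these, although their own expression of the feedback genes was not known. There, 8 of 44 cells had a Socs1 UMI and 1 of 44 each had a Pim1, Pim2 and Ptpn6 UMI, at a median depth of 6089.5 UMIs. Of the 271354 UMIs of these cells, 246415 were of the 5 erythroid marker genes, so the depth left for other genes was far lower. Cish was found in 0 of these 44 cells, which allows a share of up to 6.82%. In mature cells Cish was found in 4.19% (2.87 to 5.90) of WT and 3.76% (1.82 to 6.80) of cKO cells, against 0.504% (0.164 to 1.17) of WT and 0.303% (0.0828 to 0.775) of cKO cycling cells, whose median depths of 5315 and 6416.5 UMIs were greater.

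Mature cells were then split by coreceptor transcripts, since the study places its defect in the CD8 lineage. The split is a range by transcripts and not a lineage. Only Cd4 UMIs were found in 161 WT and 52 cKO cells, and only Cd8a or Cd8b1 UMIs in 262 and 67. Ptpn6 was lower in cKO on both sides, from 297 to 156 CPM in Cd4-only cells (log2 ratio −0.92, −1.64 to −0.27) and from 367 to 180 CPM in Cd8-only cells (−1.03, −1.50 to −0.59). Pim2 was at 81.0 and 42.7 CPM in Cd4-only cells (−0.93, −2.45 to 0.32) and at 75.3 and 34.4 CPM in Cd8-only cells (−1.13, −2.31 to −0.13). Socs1 in WT was at 194 CPM in Cd4-only and 126 CPM in Cd8-only cells, a log2 ratio of −0.62 (−1.02 to −0.22) for Cd8-only over Cd4-only. In cKO it was at 206 and 184 CPM, a ratio of −0.17 (−0.86 to 0.55). Socs1 was accordingly higher in cKO in Cd8-only cells (0.55, 0.03 to 1.04) but not apart in Cd4-only cells (0.09, −0.56 to 0.70). The intervals of these differences overlap, and whether they differ was not tested. Il7r in Cd8-only cells had a log2 ratio of −1.54 (−2.71 to −0.56) on 9 cKO UMIs. In Cd4-only cells it was −0.36 (−1.18 to 0.39) on 18 cKO UMIs. These intervals overlap too.

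**Figure D3:**
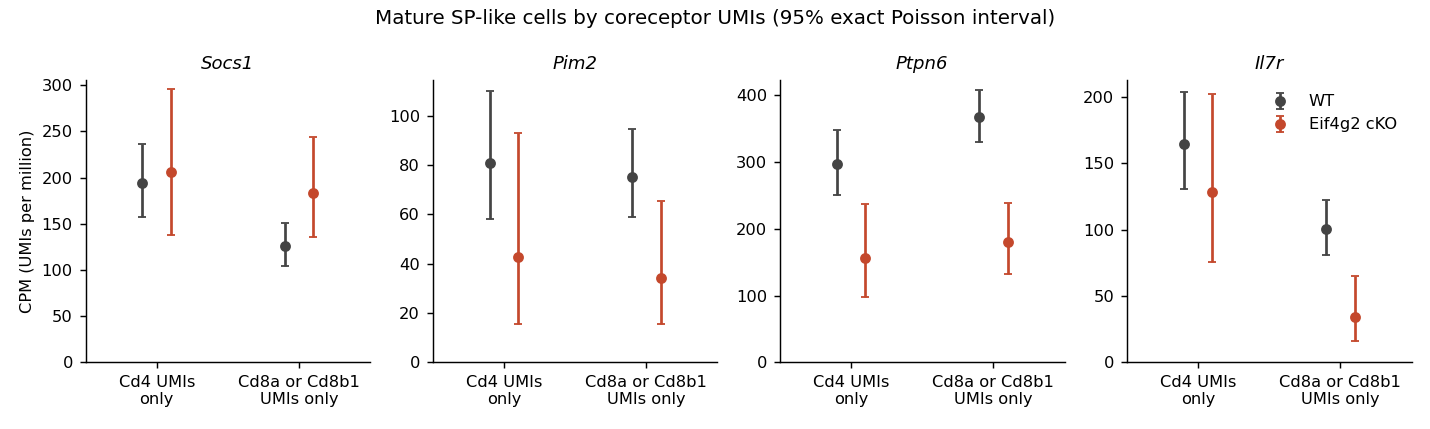
Levels of Socs1, Pim2, Ptpn6 and Il7r (y axis, CPM, linear from 0) in mature SP-like cells with only Cd4 UMIs or only Cd8a or Cd8b1 UMIs (x axis), WT in grey and Eif4g2 cKO in red, with exact Poisson 95% intervals. Ptpn6 is lower in cKO on both sides, at 156 against 297 CPM and 180 against 367 CPM, and Socs1 in WT is lower in Cd8-only cells.

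The other genes of the pathway were described in mature cells by the same fold, beside the 8.93% higher and 35.7% lower of all genes and their median of −0.25. Of 10 other regulators of cytokine and antigen receptor signalling (the list of other brakes) with enough UMIs, none was higher and 9 were lower in cKO (median −0.83). Among them, Ptprc, the phosphatase CD45, had 775 CPM in WT against 387 CPM in cKO (−1.0, −1.17 to −0.84), and Inpp5d, the lipid phosphatase SHIP1, was at 106 and 38.6 CPM (−1.45, −2.0 to −0.95). Ptpn1 and the ubiquitin ligase gene Cbl had ratios of −0.57 and −0.90. Of 10 Janus kinase and STAT genes, none was higher and 8 were lower (median −0.82), with Jak1 at −0.56, Stat5b at −1.07 and Stat3 at −0.75. In early cells 9 of 10 of them were lower (median −0.89), beside 34.1% of all genes and their median of −0.23. In cycling cells 7 of 11 were lower (median −0.56), beside 35.1%. In DP-like cells 7 of 10 were lower (median −0.77), beside 29.3%. DN-like cells, largely undeleted in cKO, had 4 of 6 lower (median −0.72), beside 27% of all genes. The list of other brakes there had 5 of 6 lower (median −0.81). Il7r in DN-like cells was at −0.97 (−1.71 to −0.26). Of 14 cytokine receptor genes in mature cells, none was higher and 8 were lower (median −0.63). Il2rg, the common gamma chain gene, which overlaps Gm20489 and lies on the X chromosome, had 709 CPM in WT against 528 CPM in cKO (−0.42, −0.57 to −0.28), and Il7r was at −0.73 (−1.09 to −0.38). Tgfbr2 was at −1.39 and Il21r at −0.47.

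Of 8 genes on the list of STAT5 outputs, none was higher and 4 were lower (Ccnd2, Ccnd3, Runx3 and Bcl6), with a list median of −0.59. The list was not sorted by whether STAT5 raises or lowers each gene, so the count is not a measure of STAT5 activity. The cyclin genes Ccnd2 and Ccnd3 were at −1.02 and −0.73, Bcl2 at −0.46 (−0.68 to −0.24) and Mcl1 at −0.03 (−0.28 to 0.22). The list of SOCS box ligase genes held Elob, Eloc, Cul5, Rnf7, Cul2 and Rbx1, not all of them specific to SOCS proteins. None of these 6 was beyond 0.5 in mature cells and their median was 0.26, with 4 of them above 0 and 2 below. The elongin genes Elob and Eloc were at 0.28 and 0.34, the RING protein gene Rbx1 was at 0.24 and Rnf7 at 0.36. Of the remaining SOCS and PIM genes, only Socs4 had enough UMIs in mature cells, at −0.46 (−1.25 to 0.27). Of 5 TCR response genes, 2 were higher (Nr4a1 at 0.80 and Egr1 at 0.71) and none lower (median 0.22), with Cd5 at 0.22 and Cd69 at 0.19. The TCR response genes were not kept out of the clustering, and Nr4a1, Egr1, Cd5 and Cd69 were also naming markers of the early class. Of 5 dissociation stress genes, none was higher and 2 were lower (median 0.07), and all 4 Y-linked genes were lower. These lists differ in gene span, which was not matched.

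**Figure D4:**
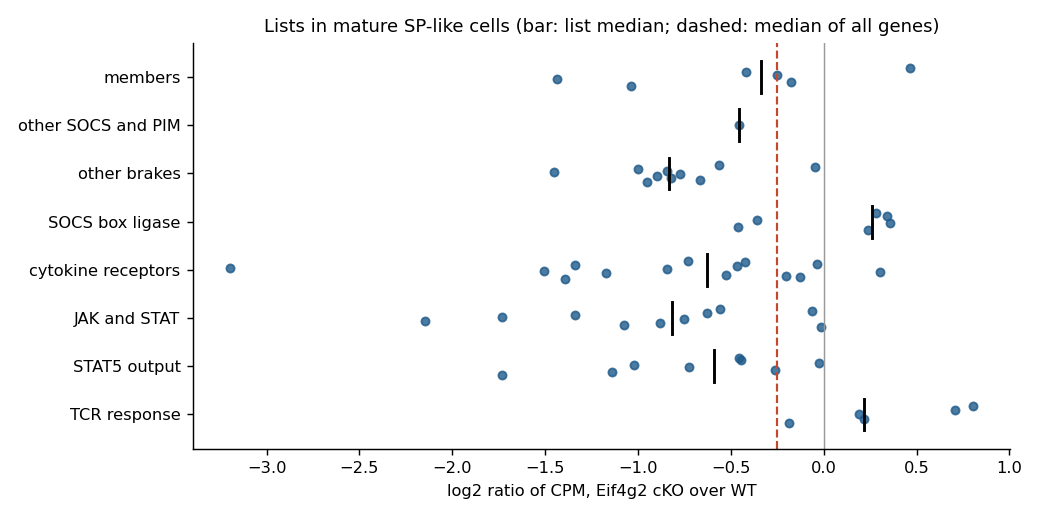
Log2 ratio of Eif4g2 cKO over WT in mature SP-like cells for the genes of each pathway list with at least 50 UMIs (points), with the list median beside the median of all genes at −0.25. The lists of other brakes and of Janus kinase and STAT genes lie mostly below 0, with medians of −0.83 and −0.82. On the SOCS box ligase list 4 of the 6 genes lie above 0, with a list median of 0.26.

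The genes most like each feedback gene were found by Pearson correlation of log2(CPM + 10) over the 12 class-by-library sums of at least 50 cells, among 8891 genes with at least 200 UMIs. The sums share libraries and classes, so the values are descriptions. For Socs1 they were Ube2j2 (0.95), Rtn4 (0.94) and Map3k13 (0.94). For Ptpn6 they were Arid5b (0.96), Gramd1b (0.96) and Gpr183 (0.92), and for Pim2 they were Sh2d3c (0.96), Flt3l (0.94) and Bin2 (0.94). For Pim1 they were Dhx34 (0.88), Ifngr1 (0.88) and Ptdss2 (0.87), for Socs3 Ahr (0.96), Cul9 (0.93) and Arhgap26 (0.89), and for Ptpn2 Ovca2 (0.94), Ndufaf4 (0.88) and Ehd3 (0.87). Cish and Socs2 had fewer than 200 UMIs and were left out. Among the feedback genes themselves, Pim2 ran with Ptpn6 (0.72) and Pim1 with Socs3 (0.65), whereas Socs1 did not run closely with any of the 5 others (−0.38 to 0.14).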

How the data were processed

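Single cells of whole thymus were captured and sequenced with the DNBelab C4 system, 1 cDNA library per genotype. The authors made the deposited counts, whole-number UMI counts per gene and cell, with dnbc4tools against mm10. Its version is 2.1.3 in the series text and 3.0 in the file header. Library totals were 18355050 and 18056277 UMIs, and every deposited cell held at least 1000 UMIs. Separate oligo libraries were not analysed here.

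Cells with at least 50 genes and at most 10% mitochondrial UMIs were kept (6012 WT and 4335 cKO). Doublets were not called or removed. Cells of both libraries were clustered together in scanpy 1.11.5 (2000 variable genes, 30 components, 20 neighbours, leidenalg 0.10.2 at resolution 1), with 78 genes kept out, and clusters were named from fixed marker lists. UMIs were summed per class and library. Intervals were computed in scipy 1.17.1, Poisson for levels, conditional binomial for ratios and Clopper-Pearson for shares, all at 95%, and the ratio calculation was tested on simulated data. PCR and cell-to-cell variation are not covered by them. Gene coordinates are those of GENCODE M21 (GRCm38), which matched 97.5% of the genes. No significance test was made, as there was 1 library per genotype.

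The genes named were all 8 feedback genes, up to 4 genes with the most UMIs in each pathway list, Il7r, Il2rg, Bcl2 and Eif4g2, and 3 genes most like each feedback gene; other genes were chosen after their values were seen. The feedback genes and lists were chosen with earlier results of these data known. Alternatives numbered 10, and 2 were added after seeing the data.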

Additional observations from a re-analysis of the deposited data

How the results depend on the processing

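No paired analysis was possible because each genotype had 1 library, and for the same reason no replicate could be left out. Of 696 single-gene ratios recomputed over 58 comparisons and 12 alternatives, 618 stayed within their counting interval, 72 moved beyond it and 6 turned direction. Turns were counted only for ratios past the fold in the main analysis. Some smaller ratios changed sign too, such as that of Ptpn2 between genotypes in cycling cells, which kept its sign in 8 of 12 alternatives. The alternatives with a minimum of 20 UMIs or no minimum cannot change a ratio. All 58 ratios of each are among the 618. The 9 pairs lower in cKO became 14 with a minimum of 20 UMIs and 16 with no minimum, and the 1 higher pair became 2 and 4, by construction of the minimum. Without a minimum the 8 higher stage steps became 13. The higher pair was lost (0 pairs) with each library clustered alone, became 3 with ratios centred on the all-gene median and became 2 with totals that left out ribosomal protein and mitochondrial genes. Pim2 from DP-like to early cells of WT turned to −0.049 among cells with 1000 to 10000 UMIs and at most 3% mitochondrial UMIs, and to −0.21 without cluster 10. Pim1 from early to mature cells of cKO turned to 0.22 at resolution 0.6 and to 0.29 with each library clustered alone. Pim2 from DN-like to DP-like cells turned to −1.28 in WT and −1.25 in cKO with classes set by marker UMIs in each cell. The causes of these turns were not tested. The other counts stayed within 1.5 times their value. Shares of all genes under these settings are not given, so the counts only describe the settings. Depth limits Socs2, Cish and Socs3, which had at most 169 UMIs in a library.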

Other observations

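The natural killer T or gamma-delta T-like class (55 WT and 14 cKO cells) was too small for a place among the thymocyte classes, and its values are given here. In WT its Il7r level was 558 CPM (interval 460 to 670) and its Ptpn6 level 401 CPM (319 to 498), with Pim1 at 122 CPM (79.2 to 181) and Pim2 at 58.7 CPM (30.3 to 103). In cKO, Il7r was at 143 CPM (68.6 to 263) and Ptpn6 at 186 CPM (99.1 to 318), while Socs1 had 206 CPM in WT and 200.4 CPM in cKO. With 14 cells in the cKO library these values are given without comparison.

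In antigen-presenting-like cells, Socs3 had 5 UMIs in each library, which is 24.4 CPM (7.91 to 56.9) in 63 WT cells and 85.7 CPM (27.8 to 200) in 25 cKO cells. Among mature WT cells with neither Cd4 nor Cd8 UMIs, 90 in number, Cish was at 55.7 CPM (28.8 to 97.2) on 12 UMIs, while the 161 Cd4-only cells were at 13.8 CPM (5.56 to 28.5).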
